A study of Zea mays with 18 samples.

Results

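The 200 genes described here had their highest transcript level in the third leaf below the ear of densely planted maize, by a wider margin than any other gene. RNA was sequenced from leaves of the hybrid cultivar Xianyu 335 at grain filling, and values were deposited as RPKM, a read count scaled to gene length and to the reads mapped in the library. The 6 groups of 3 libraries are HB and LB (the third leaf below the ear), HE and LE (the ear leaf) and HA and LA (the third leaf above the ear), where H stands for high and L for low planting density. For LA the treatment label says high density while the titles say low, and LA is used here as titled. Nothing in the labels ties the replicates to separate plants, and each p therefore covers only the spread among these samples, which may be technical. Of 31855 gene models, 21184 had at least 1 RPKM in at least 3 of the 18 libraries. For each of these, the mean of log2(RPKM + 0.5) in HB minus the highest of the 5 other group means was taken as its score, and the 200 genes with the highest scores (0.944% of those that passed the filter) are the members. They were chosen by their RPKM in HB set against the other groups, so every difference between HB and another group is given as a description, with no test.

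In a cereal canopy the leaves below the ear are the oldest and the most shaded, and they are the first to age while the grain fills. An ageing leaf takes apart its chloroplasts and proteins and exports nitrogen, carbon and phosphate to the grain. Transcripts known from ageing leaves include enzymes of chlorophyll breakdown, of the glyoxylate cycle, which turns the acetyl units of fatty acids into organic acids, and of amino acid recycling, together with WRKY and NAC transcription factors.

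The 200 genes together took 1.30%, 1.69% and 2.10% of all RPKM in the 3 HB libraries. In the other 15 libraries they took 0.114% to 0.450%. LB replicate 2 held the highest of these shares, 0.450%, while the other LB libraries held 0.233% and 0.210%. The shares were 0.292%, 0.347% and 0.312% in HE, 0.145%, 0.249% and 0.125% in LE, 0.132%, 0.220% and 0.117% in HA, and 0.133%, 0.194% and 0.114% in LA. In these shares the groups outside HB lay closer to one another than any of them lay to HB. The rule built in that gap when it chose the members. Without the 5 members most abundant in HB, the sum was 5650, 6382 and 8278 RPKM in HB, against 504 to 1751 RPKM in the 15 other libraries. Every member was chosen for a higher mean in HB, so a higher sum there was set by the rule. In whole leaves, more RNA per cell and more cells of a type cannot be told apart.

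**Figure D1:**
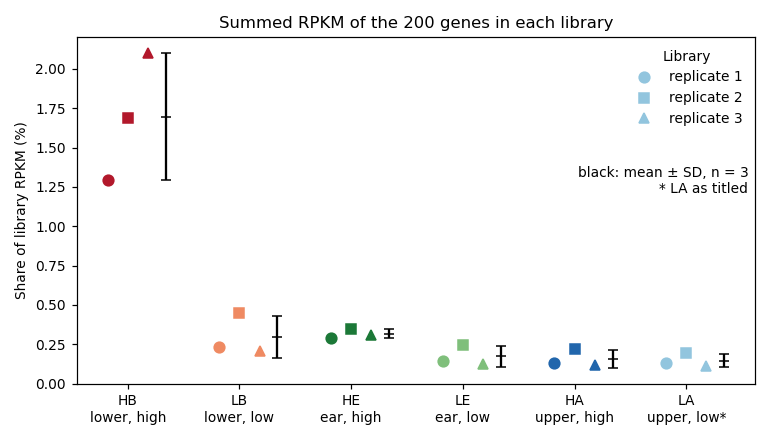
Share of each library's summed RPKM taken by the 200 genes (vertical axis, percent) in the 6 groups (horizontal axis), with 1 point per library and the mean and SD of 3 libraries in black. HB libraries lie between 1.30% and 2.10%, and the 15 others at or under 0.450%.

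Scores ran from 7.91 to 1.62 on the log2(RPKM + 0.5) scale, with a median of 1.93. A score of at least 2 was reached by 89 members, of at least 3 by 19 and of at least 5 by 5. The limit fell in a dense stretch: the members of lowest score, GRMZM2G090584, GRMZM2G083328 and GRMZM2G064969, scored 1.62 each, and the first genes outside, GRMZM2G033644, GRMZM2G181227 and GRMZM2G325683, scored 1.62, 1.61 and 1.61. Mean levels in HB spanned 1.84 to 1106 RPKM, with quartiles of 6.70, 14.1 and 33.4 RPKM. In 189 of the 200 genes all 3 HB libraries lay above the 15 others, which held for 14.9% of all genes that passed the filter. The rule used that contrast, as it did for HB having the highest of the 6 means, which held for 45% of all genes.

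The levels of the members differed among the HB libraries. HB replicate 3 was the highest of the 3 for 146 members and HB replicate 1 the lowest for 132, or 73% and 66%, against 30.5% and 34.7% of all genes that passed the filter. The highest HB library exceeded the lowest by a median of 1.77 times, and by at least 5 times for 8 members. HB replicate 1 also had the lowest relative depth of the 18 libraries, 0.884, against 1.04 and 1.05 in HB replicates 2 and 3. The part of depth in the order of the HB libraries was not tested.

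**Figure D2:**
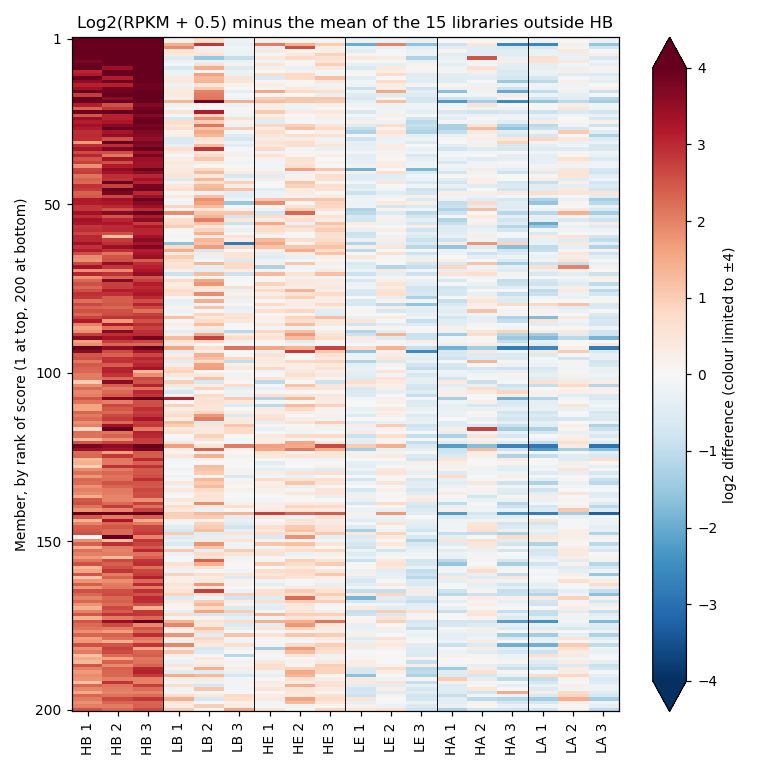
Log2(RPKM + 0.5) of each member (rows, by rank of score) in each library (columns), minus that gene's mean over the 15 libraries outside HB, with the colour limited to 4 in either direction. The HB columns are red in nearly every row, and paler red stretches stand in LB replicate 2 and in the 3 HE columns.

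Of the leaf marker sums checked, that of mesophyll set HB apart from all 15 other libraries. The summed level of 4 mesophyll genes of the C4 pathway was 3297, 2306 and 2699 RPKM in HB and 6728 to 15099 RPKM in the other 15 libraries. The lowest of these 15 was again LB replicate 2, with 6728 RPKM, against 10712 and 12902 RPKM in the other LB libraries. pep1 (GRMZM2G083841), the C4 phosphoenolpyruvate carboxylase, was at 618, 461 and 374 RPKM in HB and 3881, 2063 and 5264 RPKM in LB. The sum of 4 bundle sheath genes was 1544, 836 and 943 RPKM in HB and 855 to 2455 RPKM elsewhere, and the sucrose transporter sut1 of the phloem was at 280, 230 and 224 RPKM in HB and 184 to 340 RPKM elsewhere. The level of sut1 in HB thus overlapped every other group. The bundle sheath sum of HB overlapped LE, HA and LA. It lay below every LB library (1698 to 2300 RPKM) and every HE library (2046 to 2455 RPKM). HB replicate 2 held the lowest bundle sheath sum. Among the bundle sheath genes, PCK was at 243, 85.1 and 115 RPKM in HB, against 219 to 652 RPKM elsewhere. ME1 was at 804, 456 and 463 RPKM in HB, within the 326 to 964 RPKM elsewhere. Every HB library lay below LB (904, 892 and 878 RPKM) and HE (867, 822 and 964 RPKM) in ME1. No defining marker of mesophyll or bundle sheath stood at 0 in any library. The part of cell type composition in the members' levels was not tested.

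The 2 genes of highest score encode the enzymes that are particular to the glyoxylate cycle. ICL (GRMZM2G056369), isocitrate lyase, was at 73.1, 190.5 and 344 RPKM in HB. It was at 0.160, 0.458 and 0.0540 RPKM in LB and at 0, 0.121 and 0.125 RPKM in HE, was listed at 0 in every LE and HA library, and reached 0.229 RPKM in 1 of the 3 LA libraries. LIP (GRMZM2G102183), also listed as mas1, malate synthase, was at 76.1, 124 and 201 RPKM in HB, against 0 to 0.504 RPKM in the 15 other libraries. Both genes were thus abundant in the crowded lower leaf and at or near 0 in the other leaves.

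ICL and LIP belong to 28 members whose mean lay under 0 on the log2(RPKM + 0.5) scale in each of the 5 other groups. In HB these 28 genes had means of 1.84 to 202 RPKM, with a median of 3.53. The next after ICL and LIP were GRMZM2G087824, at 20.1, 22.7 and 36.5 RPKM in HB and at most 0.475 RPKM elsewhere, and GRMZM2G429533, at 20.2, 17.7 and 38.6 RPKM in HB and at most 0.813 RPKM elsewhere. Of the 200 members, 54 passed the filter on low values only through HB, since they reached 1 RPKM in fewer than 3 of the 15 other libraries, and the other 146 passed without it.

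Members that act on chlorophyll, sugars and starch were low but measurable in the other leaves. SGR2 (GRMZM2G091837), a stay-green protein that acts in the first steps of chlorophyll breakdown, was at 36.7, 39.7 and 62.7 RPKM in HB. It was at 6.44, 7.63 and 4.199 RPKM in LB and at most at 4.70 RPKM in HE, LE, HA and LA. AGA3b (GRMZM2G037265), an alkaline alpha-galactosidase, an enzyme that splits galactose from raffinose-type sugars and galactolipids, was at 20.8, 40.4 and 33.8 RPKM in HB, against 3.22, 4.58 and 4.14 RPKM in LB and 0.269 to 5.22 RPKM in the rest. Its relative AGA3a (GRMZM2G050177) was at 10.5, 19.3 and 12.9 RPKM in HB and at most 3.76 RPKM elsewhere. In both genes, every HB library lay above every other library. A further gene model that the RefSeq table names AGA3a, GRMZM2G050273, stood just outside at rank 208, with 0.765, 7.32 and 5.87 RPKM in HB. Agp2 (GRMZM2G106213), a small subunit of ADP-glucose pyrophosphorylase, the enzyme that commits glucose to starch, was at 18.9, 21.0 and 28.0 RPKM in HB and at 4.24, 10.9 and 4.33 RPKM in LB.

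Enzymes of amino acids, phosphate and glutathione formed a further group of named members. lkrsdh1 (GRMZM2G181362), which breaks down lysine, was at 83.9, 122 and 92.6 RPKM in HB, and the highest of the 15 other libraries, LB replicate 2, held 46.0 RPKM. PAPhy (GRMZM2G134054), a purple acid phosphatase of the phytase type, which frees phosphate from phytic acid, was at 15.6, 36.6 and 32.7 RPKM in HB, against 3.06, 5.46 and 4.74 RPKM in LB. gsh1 (GRMZM2G111579), the enzyme of the first step of glutathione synthesis, was at 76.8, 104 and 138 RPKM in HB. Its level elsewhere was at most 39.0 RPKM, in an HA library, and HA and not LB or HE stood second. asn3 (GRMZM2G053669), an asparagine synthetase, was uneven in HB: it was at 0.829, 23.9 and 4.70 RPKM in HB, and HE replicate 2 held 4.23 RPKM. asn3 left the 200 genes without HB replicate 2, and also without HE replicate 1 or HE replicate 3.

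Genes of transport, calcium and wounding were also among the members. CBL10 (GRMZM2G116584), a calcineurin B-like calcium sensor, was at 61.2, 49.3 and 69.8 RPKM in HB. It was at 4.03, 13.0 and 2.11 RPKM in LB, at 9.55, 5.40 and 5.06 RPKM in HE, at 2.46, 9.63 and 2.17 RPKM in LE, and at 0.357 to 2.52 RPKM in HA and LA. The upper leaf held the lowest levels of CBL10, with some overlap with LB and LE. MRP1 (GRMZM2G113203), an ABC transporter of the multidrug resistance-associated family, was at 5.56, 6.56 and 6.60 RPKM in HB and at most 3.05 RPKM elsewhere. wip1 (GRMZM2G156632), a wound-induced proteinase inhibitor, was at 10.5, 23.6 and 33.6 RPKM in HB but overlapped LB, where replicate 1 held 15.6 RPKM and the others 2.21 and 3.46 RPKM. The roles of gol1 and AUX10 are not stated here; gol1 (GRMZM2G080079) was at 11.02, 11.2 and 13.8 RPKM in HB and AUX10 (GRMZM2G057067) at 77.6, 75.4 and 103.5 RPKM, with maxima elsewhere of 5.19 and 28.3 RPKM.

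**Figure D3:**
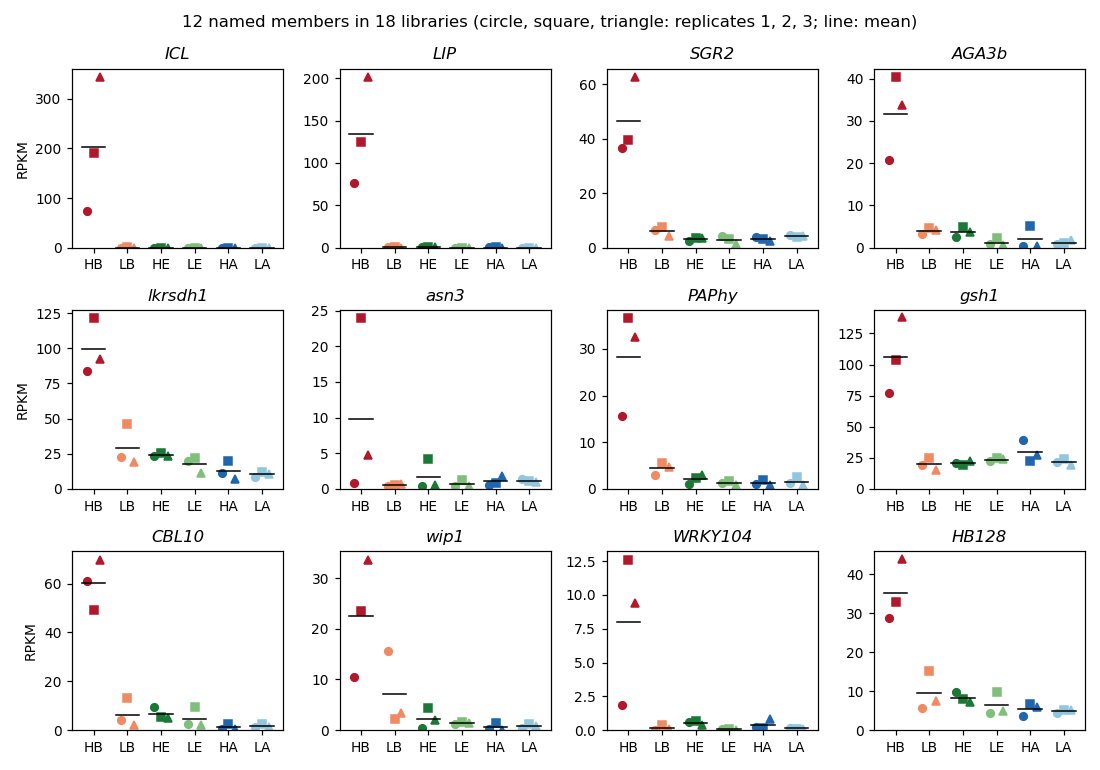
RPKM of 12 named members (1 panel each, linear axis from 0) in the 18 libraries, with HB on the left. Circles, squares and triangles are replicates 1, 2 and 3 and lines are group means; in the asn3 panel the HB square lies at 23.9 RPKM, far above the HB circle and triangle, and in the wip1 panel 1 LB circle at 15.6 RPKM lies above the lowest HB circle.

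Among transcription factors, WRKY104 (GRMZM2G169149) was at 1.86, 12.6 and 9.42 RPKM in HB and at most 0.847 RPKM elsewhere, and WRKY53 (GRMZM2G125653) at 4.30, 16.7 and 9.75 RPKM in HB and at most 2.63 RPKM elsewhere. NAC22 (GRMZM2G156977) was low, at 1.23, 5.997 and 1.36 RPKM in HB, and left the 200 genes, as WRKY53 did, without HB replicate 2. HB128 (GRMZM2G041462), a homeobox factor whose name is unrelated to the leaf group, was at 28.7, 32.7 and 43.9 RPKM in HB and at 3.64 to 15.2 RPKM in the rest. PLTZ1 (GRMZM2G004548) and PLTZ9 (GRMZM2G094168), zinc-binding proteins of the PLATZ family, were at 41.0, 53.5 and 81.8 RPKM and at 31.5, 30.0 and 51.0 RPKM in HB, with LB replicate 2 the highest elsewhere, at 27.5 and 15.7 RPKM. gt1 (GRMZM2G005624), a homeodomain factor that holds back the growth of side buds, had the lowest HB mean of the 200 genes, 1.84 ± 0.914 RPKM (SD, n = 3), against at most 0.427 RPKM in any other library. mbd123 (GRMZM2G119802), a methyl-CpG-binding domain protein, was at 2.49, 3.75 and 4.18 RPKM in HB and at most 1.55 RPKM elsewhere.

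Families of the named members were read for how far the high score reached beyond them. Of 18 WRKY genes that passed the filter, 14 had a score above 0, against 45% of all genes, and the median score was 0.32; the highest score in the family outside the members was 0.91, of WRKY111. All 3 PLATZ genes scored above 0, with PLTZ8 at 0.78, as did 7 of 8 CBL genes, where CBL10 at 3.12 stood far above the next, at 0.53. Of 5 AGA genes 4 scored above 0, with AGA2 at 1.22 and AGA1 at -0.52. Of 9 MBD genes 8 scored above 0, with a median of 0.29, as did 2 of 2 asparagine synthetases and 1 of 2 genes of glutathione synthesis. NAC genes, with 9 of 16 above 0, and homeobox genes named HB, with 6 of 13, were near the share of all genes. The AUX genes had 4 of 11 above 0, with AUX10 at 1.89 and the lowest at -2.20. These families were picked because they hold members, and the counts include those members, whose scores above 0 were set by the rule. The members number 2 each in WRKY, PLATZ and AGA, and 1 each in the other families. The scores are a description with no test.

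**Figure D4:**
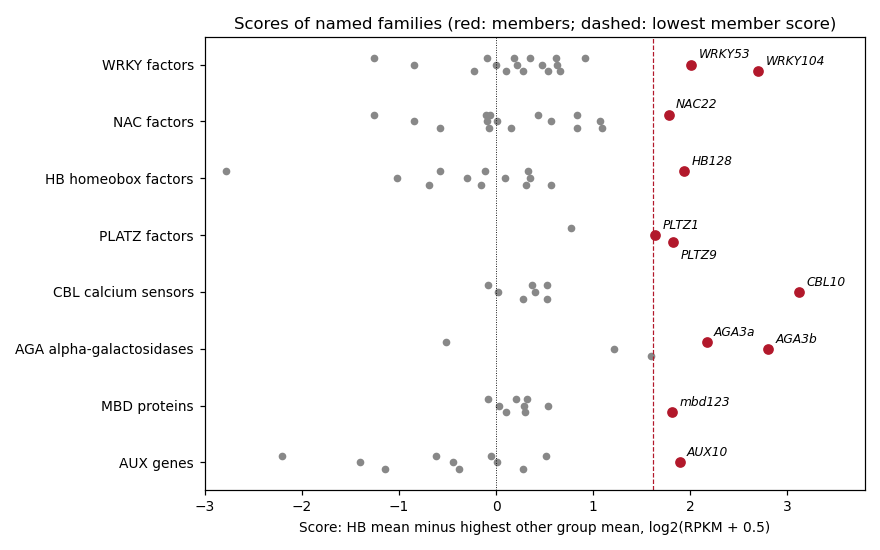
Score of every gene of 8 named families that passed the filter (horizontal axis, HB mean minus the highest other group mean of log2(RPKM + 0.5)), 1 point per gene with members in red and named. The dashed line marks the lowest member score, 1.62 and has 1 or 2 genes of each family to its right, all of them members.

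Pairs of members lie close together in the RefSeq gene order: AGA3b and AGA3a with 2 genes between them, WRKY53 and WRKY104 also with 2, MRP1 and GRMZM2G126900 with 1, and GRMZM2G169261 and GRMZM2G106177 with 0. GRMZM2G102933 and GRMZM2G153977 matched the same RefSeq gene. GRMZM2G169261 was at 268, 202 and 283 RPKM in HB and GRMZM2G106177 at 33.3, 63.4 and 91.3 RPKM. Neighbouring genes can share reads where they are near copies, and the sources used here do not say how such reads were counted.

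The most abundant members carry no gene name. GRMZM2G142802 was at 850, 954 and 1513 RPKM in HB, against 79.9 to 356 RPKM in the 15 other libraries. GRMZM2G387360 was at 166, 787 and 972 RPKM in HB and at most 23.6 RPKM elsewhere, GRMZM2G137535 at 115, 613 and 373 RPKM in HB and at most 41.7 RPKM elsewhere. GRMZM2G123558 and GRMZM2G430849 had HB means of 624 ± 128 and 314 ± 103 RPKM (SD, n = 3). GRMZM2G142802 was thus abundant in every leaf, whereas GRMZM2G387360 ranged from 0.0746 to 23.6 RPKM outside HB.

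Most of the other high scores also belong to genes without a name, some near 0 outside HB and others low but measurable. GRMZM2G004856 was at 7.66, 32.1 and 20.7 RPKM in HB, was listed at 0 in every LB library and reached at most 0.409 RPKM elsewhere. GRMZM2G429548 was at 9.66, 16.9 and 31.6 RPKM in HB and at most 0.732 RPKM elsewhere. GRMZM2G090245 was at 29.5, 78.8 and 113 RPKM in HB, and outside HB it exceeded 1 RPKM only in LB replicate 1, at 2.62 RPKM, and in HE replicate 2, at 4.55 RPKM. These 3 genes were at or near 0 in most libraries outside HB. GRMZM2G042933 was at 41.3, 56.1 and 58.6 RPKM in HB and between 1.68 and 7.89 RPKM elsewhere, and GRMZM2G006973 at 34.4, 22.6 and 41.4 RPKM in HB and between 0.357 and 7.73 RPKM elsewhere. In both, LB replicate 2 held the highest value outside HB. GRMZM2G018820 resembled asn3 in being highest in HB replicate 2, with 3.87, 48.7 and 9.71 RPKM in HB and 15.5 RPKM in HA replicate 2. GRMZM2G428216 was abundant in HB, at 377, 188 and 298 RPKM, but HE replicate 2 held 216 RPKM and lay above the lowest HB library.

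After HB, most members were next highest in LB or in HE. LB held the second place for 89 members and HE for another 89, LA for 11, HA for 9 and LE for 2. The lowest mean lay in LE for 68 members, in HA for 65, in LA for 56, in LB for 8 and in HE for 3. The mean in second place is the one that the rule subtracted from HB. The places are thus a description, and the matching shares of all genes were not counted. The comparisons that follow leave HB out of each contrast and were fitted over all 21184 genes with limma. The rule used their groups only through the highest of their means. The comparisons share groups: LE serves in 3 of them, and HE, HA and LA in 2 each, so their results are not independent of one another. The 54 members that passed the filter only through HB stay in the counts, and values for the other 146 are given beside them.

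The marker sums also differed in some of these contrasts. The bundle sheath sum was 2046 to 2455 RPKM in HE, against 1281 to 1769 RPKM in LE and 1134 to 1775 RPKM in HA, without overlap. The mesophyll sum was 9473 to 11772 RPKM in HE and 12071 to 13216 RPKM in HA, without overlap, while HE overlapped LE, at 11503 to 14153 RPKM. In LB the bundle sheath sum was 1698 to 2300 RPKM and the mesophyll sum 6728 to 12902 RPKM, and both overlapped LE. The part of cell composition in the shifts of the members was not tested.

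Crowding in the ear leaf was asked by HE against LE. At limma adjusted p under 0.05, 23 of the 200 members were higher in HE and 0 lower, or 11.5%, where 8.97% of all genes were called higher and 4.97% lower. The shares called higher were thus near one another. What differed was the whole list: the members' log2 fold change had a median of 0.59, against 0.03 over all genes, and lay above 0 in 91.5% of members and in 53.5% of all genes. Of the 146 members that passed the filter without HB, 22 were higher and 0 lower, with a median of 0.72, against 0.02 over the 20757 genes that passed in the same way. The largest rises were those of GRMZM2G428216, GRMZM2G146981 and GRMZM2G329069, with log2 fold changes of 2.52, 2.38 and 2.11 (limma adjusted p of 0.0228, 0.0122 and 0.0161), and each call was lost without HE replicate 2 and without LE replicate 1. GRMZM2G159477, with no gene name, rose in HE, at 6.56, 8.51 and 8.42 RPKM, against 2.28, 2.53 and 1.81 RPKM in LE, and the groups did not overlap. Its log2 fold change was 1.62 ± 0.23 (SE; adjusted p = 0.00135), and it stayed called without each library. So did GRMZM2G322950, at 3.60, 2.42 and 3.53 RPKM in HE and 0.934, 0.620 and 0.284 RPKM in LE, and GRMZM2G041699, at 18.3, 14.0 and 13.9 RPKM in HE and 3.62, 4.27 and 6.06 RPKM in LE. The remaining 20 calls were lost without at least 1 library, and the count of called members moved with single libraries. Leaving out HE replicate 2 or HE replicate 3 gave 5 and 8 called members, and leaving out replicate 1, 2 or 3 of LE gave 5, 35 and 4. Among named members PLTZ9 rose, at 10.9, 9.19 and 9.86 RPKM in HE and 3.36, 6.24 and 3.73 RPKM in LE, with a log2 fold change of 1.13 ± 0.33 (adjusted p = 0.0331). Its call was lost without 5 of the 6 libraries and with no filter, at an adjusted p of up to 0.128.

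Leaf position at low density was asked by LB against LE. The members were again shifted upward as a list, with a median log2 fold change of 0.56, against -0.00 over all genes, and 93.5% above 0, against 49.6% of all genes. Over the 146 members that passed without HB the median was 0.64, with 1 higher and 0 lower. The single called member was GRMZM2G159477, at 5.51, 8.71 and 5.06 RPKM in LB and 2.28, 2.53 and 1.81 RPKM in LE, with a log2 fold change of 1.33 ± 0.23 and a limma adjusted p of 0.0219. The call was lost without LB replicate 2, LE replicate 1 or LE replicate 3, and in a fit of these 2 groups alone. Of all genes, 0.217% were called higher and 0.0708% lower. At an unadjusted limma p under 0.05, 61 of the 200 members were higher and 0 lower. Of all genes, 6.69% were higher and 5.36% lower at that threshold. Among named members PAPhy was at 3.06, 5.46 and 4.74 RPKM in LB and at 1.30, 1.62 and 0.805 RPKM in LE, a log2 fold change of 1.49 ± 0.37 that missed the threshold (limma adjusted p = 0.12), as did SGR2 at 0.99 ± 0.28 (limma adjusted p = 0.162).

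Leaf position at high density, without the lower leaf, was asked by HE against HA. Here 18 members were higher in HE and 0 lower, or 9%, against 1.25% of all genes called higher and 1.19% lower. The median log2 fold change was 0.61, against 0.04 over all genes. All 18 were among the 146 members that passed without HB, whose median was 0.78. GRMZM2G009125 had the largest rise, at 61.0, 44.0 and 48.4 RPKM in HE, against 1.43, 5.18 and 1.37 RPKM in HA, a log2 fold change of 4.22 ± 0.51 (limma adjusted p = 0.000324). Next were GRMZM2G169240, at 30.9, 28.4 and 62.8 RPKM in HE and 1.71, 2.63 and 1.11 RPKM in HA, and GRMZM2G169261, at 51.4, 44.0 and 112 RPKM in HE and 4.14, 6.10 and 2.07 RPKM in HA. In all 3 genes every HE library lay far above every HA library. CBL10 was the only named member called. It was at 9.55, 5.40 and 5.06 RPKM in HE and 0.578, 2.52 and 0.357 RPKM in HA, a log2 fold change of 2.29 ± 0.58 (limma adjusted p = 0.046). Leaving out 5 of the 6 libraries took this to as much as 0.224, and a pseudocount of 1, no filter or leaving out HB also lost the call. The count of 18 was 11 without HE replicate 2, 7 without HE replicate 3, 9 without HA replicate 1 and 5 without HA replicate 3. GRMZM2G430849, GRMZM2G002396, GRMZM2G169240, GRMZM2G009125 and GRMZM2G175258 stayed called without each library. Same-numbered HE and HA libraries deviated together. With the replicate number as a block 29 members were called, or 44 in a blocked fit of these 2 groups alone. The shares of all genes called in the blocked fits are not given here.

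Both comparisons with LA carry the conflict between its treatment label and its title. In HA against LA, 0 members were called, where 0.0566% of all genes were called higher and 0.0614% lower. At an unadjusted limma p under 0.05, 3 of the 200 members were higher and 0 lower. Of all genes, 5.33% were higher and 3.47% lower at that threshold. The median log2 fold change of the members was -0.00, against 0.05 over all genes. In LE against LA, 4 members were higher and 3 lower, or 2% and 1.5%, against 2.11% and 3.63% of all genes. GRMZM2G009125 was higher in LE, at 10.1, 29.8 and 6.35 RPKM, against 0.877, 2.96 and 0.469 RPKM in LA, a log2 fold change of 2.96 ± 0.51 (limma adjusted p = 0.00927), and was the only 1 of the 7 that stayed called without each library. GRMZM2G169240, GRMZM2G175258 and GRMZM2G102888 were the others called higher, and GRMZM5G805609, GRMZM2G322950 and GRMZM2G174719 were called lower. The count was 1 without LE replicate 1 or LA replicate 1, 2 without LE replicate 2, 3 without LE replicate 3 and 4 without LA replicate 3. As a list the members were not shifted here: their median was 0.02, against 0.05 over all genes, and 52% lay above 0, against 55.9%. Over the 146 members that passed without HB the median was 0.06 here, with the same 4 higher and 3 lower, and 0.01 in HA against LA, with 0 called.

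**Figure D5:**
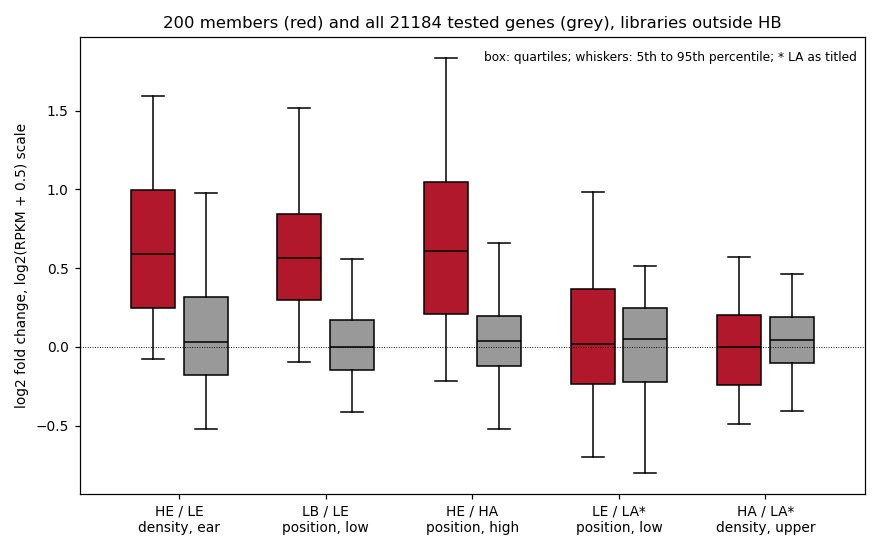
Log2 fold changes (vertical axis, log2(RPKM + 0.5) scale) of the 200 members in red and of all 21184 genes in grey for the 5 comparisons without HB, with the first-named group over the second; boxes are quartiles and whiskers the 5th to 95th percentile. The members' medians are 0.59, 0.56 and 0.61 in the first 3 comparisons and 0.02 and -0.00 in those with LA.

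In all, 37 members were called in at least 1 of the 5 comparisons and 10 in at least 2. GRMZM2G159477 and GRMZM2G009125 were called in 3. The matching shares of all genes were not counted, so these counts say nothing particular of the members. HE against LE alone called 8.97% of all genes higher and 4.97% lower. Outside HB, replicate 2 was the highest of its group for 133 of the 200 members in LB, 90 in HE, 137 in LE, 121 in HA and 147 in LA. The shares of all genes were 54.7%, 37.9%, 40%, 33.4% and 55.5%, in the same order. In HB, replicate 2 was the highest for 41 of the 200, or 20.5%, against 37.5% of all genes. The labels name no batch that replicate numbers might stand for, and the part of such a batch was not tested.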

How the data were processed

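Maize leaf RNA-seq gave 18 libraries. Their titles set 6 groups of 3. Per the submitters' processing notes, Trimmomatic 0.35, HISAT 0.1.6, HTSeq 0.6.1 and the build B73 RefGen_v3 were used. The authors deposited RPKM values, already normalized to gene length and library total; the formula, the gene lengths and the strand setting are not given in the sources used here. Read counts were not used here, so absolute depth is unknown. A relative depth of 0.884 to 1.12 was recovered from 820 genes of very low value, in which 1 read stood for a median of 0.051 RPKM. Total RPKM per library was 560984 to 595593, with 25749 to 27316 genes above 0.

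The filter asked for 1 RPKM or more in 3 or more libraries. The fit used limma 3.58.1 (R 4.3.3) on log2(RPKM + 0.5), with a mean per group, a trend of the prior variance, 12 residual degrees of freedom, 2-sided tests and Benjamini-Hochberg adjustment over 21184 genes; adjusted p under 0.05 was called. Fold changes on this scale understate those of low genes. With 3 libraries a group, an exact permutation p cannot go below 0.1. The members, families and lists were chosen with earlier results of these data known.

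Same-numbered libraries were checked as pairs by correlating their deviations from the group means. In 2 of 15 pairs of groups, HE with HA (0.173, 0.189 and 0.137) and LB with HA, all 3 correlations lay above 0.1. A replicate block was therefore given beside HE against HA and otherwise as an alternative.

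RefSeq names (assembly Zm-B73-REFERENCE-NAM-5.0) were matched to 133 of the 200 members, 5 of them to more than 1 row; the coordinates of that assembly are not given, and its gene order served to find neighbouring members. The RefSeq table holds no gene descriptions, so the rule for named genes took gene names in their place. It asked for the 10 highest scores and the 3 largest called changes per comparison among members with a name, and, named or not, for the 5 highest HB levels and the genes at the limit. All 23 members with such a name are given. Unnamed members outside that rule were chosen after their values were seen. Of 34 lists of name patterns, 22 matched no tested gene, as the patterns were written for descriptions, and so say nothing of their pathways (glyoxylate cycle, chlorophyll breakdown and NAC factors among them). Of the 12 others, only the WRKY list had members, 2 of 18. A check of GC content or length was void, since 67 members had no entry. Promoter motifs were not searched and no sequence is shown. Alternatives were other pseudocounts, filters, scalings, sample sets, a replicate block and leaving out each library.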

Additional observations from a re-analysis of the deposited data

Results flagged for a closer look

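In 4 members the density difference ran in opposite directions in the ear and upper leaves: every HE library lay above every LE library, while every HA library lay below every LA library. Of all genes that passed the filter, 1% showed opposite directions of either kind, and of the members 2%. The difference of the 2 log2 fold changes was 1.403 for GRMZM2G042494, at 1.45, 0.771 and 1.17 RPKM in HE, 0.413, 0.572 and 0.0453 RPKM in LE, 0.124, 0.188 and 0.115 RPKM in HA and 0.203, 0.459 and 0.435 RPKM in LA. It was 1.375 for GRMZM2G063276, 1.509 for GRMZM2G074781 and 1.004 for GRMZM5G805609. A limma interaction term, added after the data were seen, gave these genes adjusted p of 0.213, 0.172, 0.167 and 0.25, so none passed the threshold of 0.05, and 0 of 21184 genes did. At an unadjusted p under 0.05 the interaction was higher for 25 members and lower for 0, against 8.81% and 6.69% of all genes. The difference rests on LA as titled, against its treatment label.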

How the results depend on the processing

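Of the 200 members, 94 were chosen in all 26 alternative lists and 122 in all 18 that left out 1 library. These 18 shared 169 to 199 genes with the 200, and 60 members did not reach the 5 RPKM filter. Among the 23 named members, 14 were chosen in all 26 lists. PLTZ1 and MRP1 were each chosen in 14 of the 18 lists, the fewest of any named member, asn3 in 15 and gt1 in 16. The counts of called members ranged, over fits that left out 1 library, from 4 to 35 for HE against LE, 0 to 3 for LB against LE, 5 to 25 for HE against HA and 1 to 7 for LE against LA, and stayed at 0 for HA against LA. With no filter they were 15 (HE against LE), 11 (HE against HA) and 4 (LE against LA). In fits of 2 groups alone they were 44, 31 and 3 for the same comparisons. With the replicate block they were 39 for HE against LE, 4 for LB against LE and 29 for HE against HA, and 44 for HE against HA with the block in those 2 groups alone, a fit added after the data were seen. The shares of all genes called in these fits, and in those that left out 1 library, are not given here. A change in the members alone therefore cannot be told from a change in all genes. The cause of these shifts was not tested. Under median-ratio and quantile scaling the 5 counts kept within 1.5 times, and the members' median log2 fold change stayed above 0 in HE against LE, LB against LE and HE against HA; in LE against LA it was -0.01 and 0.14. Over fits that left out 1 library, this median crossed 0 in LE against LA (-0.09 to 0.16) and in HA against LA (-0.14 to 0.14). No called member changed direction under the alternatives run. Absolute depth is unknown, so values near 0.051 RPKM stand for about 1 read, and levels under 0.5 RPKM are poorly resolved.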
